A study of Mus musculus with 22 samples.

Results

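Expression of 42 genes of glycolysis, lactate handling and the pentose phosphate pathway was followed across the 6 groups of a mouse RNA-seq study of VISTA, an immune checkpoint protein encoded by Vsir. The members were taken by gene symbol from the 3 deposited count tables. All 42 were listed in the normoxia and hypoxia tables and 41 in the tumor table, out of 35255 Ensembl genes listed in any table. Fbp1 was not listed in the tumor table. Bone marrow progenitors of wild-type (WT) and VISTA knockout (KO) mice, both of C57BL/6N background, had been grown with GM-CSF and IL-6, which drive them towards myeloid-derived suppressor cells (MDSC), and MDSC were purified from the normoxia cultures. Libraries came from normoxia cultures at day 4 (4 WT, 4 KO) and from hypoxia cultures at 24 hours (4 WT, 4 KO). MC38 tumor samples, from a mouse colon carcinoma line grown in WT or KO mice and taken at day 7, gave 3 libraries per genotype. The labels name no Cre or driver for the KO allele, and they do not say whether the tumor samples were purified, whereas the name of the tumor count table speaks of MDSC. Cytokines and purification are described for the normoxia cultures only. Independent biological replicates are stated for normoxia. No such statement was found for the other experiments, where p-values may measure only a technical spread.

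Glycolysis takes up glucose through membrane transporters, traps it as glucose 6-phosphate, splits it into triose phosphates and ends in pyruvate. Lactate dehydrogenase turns pyruvate into lactate, which monocarboxylate transporters export, while the pentose phosphate pathway draws on glucose 6-phosphate for NADPH and ribose. Low oxygen stabilises HIF-1, a transcription factor that binds DNA cores such as ACGTG and raises many of these genes, and activated myeloid cells are known for a high glycolytic rate.

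Libraries held 23409142 to 23722932 counts in normoxia, 30839108 to 31385825 in hypoxia, 27452024 to 31716200 in tumor WT and 19119985 to 23089943 in tumor KO. Vsir separated the genotypes everywhere: levels in CPM (counts scaled to library size) were 651 to 856 in WT and 139 to 242 in KO in normoxia, 512 to 611 and 113 to 163 in hypoxia, and 427 to 480 and 113 to 128 in the tumor samples. Ribosomal protein genes took 3.31% to 3.66% of counts in normoxia WT and 2.45% to 3.15% in KO. In hypoxia these shares were 3.26% to 3.69% and 2.73% to 2.92%. Cell type markers moved with the genotype. The summed level of 16 granulocyte markers, none at 0, was 35400 to 48100 CPM in WT and 50500 to 73400 in KO in normoxia, where 11 of 16 were called higher. In hypoxia the same sum was 27600 to 37000 in WT and 55600 to 68200 in KO, and 15 of 16 were called higher. Mast cell and basophil markers were called higher in KO for 7 of 7 tested in normoxia (sum 44.5 to 64.2 CPM in WT, 93.4 to 128 in KO) and 8 of 8 in hypoxia (476 to 737 and 739 to 1070). Eosinophil markers were called higher for 4 of 6 in normoxia (67.1 to 83 and 88.6 to 143) and 7 of 7 in hypoxia (1070 to 1720 and 2110 to 3770). In normoxia the dendritic cell sum was 43.5 to 95.1 CPM in WT and 125 to 286 in KO, the B cell sum 34.6 to 48.5 and 76.9 to 107, and the erythroid sum 15 to 16.8 and 7.06 to 11.2. The dendritic cell rise was led by MHC class II genes such as H2-Ab1 (8.01 to 24.3 in WT, 36.1 to 86.5 in KO). Itgax, of the same list, overlapped (24.6 to 31.2 and 24 to 36.7). In hypoxia the B cell sum was 67.3 to 79.7 in WT and 110 to 176 in KO, and the erythroid sum 22.8 to 59 and 11.8 to 13. Tumor sums were 382 to 452 in WT and 473 to 603 in KO for fibroblast markers and 36.6 to 57.9 and 75.8 to 82.7 for erythroid markers. The 10 dendritic cell markers summed to 5640 to 7700 CPM in tumor WT and 9590 to 13700 in tumor KO libraries, with 6 of 10 called higher and none at 0. Most of that sum came from the MHC class II genes H2-Ab1 (mean 3420 CPM in WT, 5960 in KO), H2-Aa (1570 and 2730) and H2-Eb1 (1350 and 2480). Ciita (137 and 215), Flt3 (1.26 and 3.45) and Cd209a (4 and 10.4) were also higher in KO without overlap. Genotypes overlapped for Itgax (11.4 and 12.6), Zbtb46 (0.628 and 1.3), Xcr1 (2.73 and 2.66) and Ccr7 (1.59 and 1.66). The sum of 10 T and NK cell markers was 24.9 to 49.3 CPM in tumor WT and 8.93 to 16.5 in tumor KO, with 5 of 10 called lower. Myeloid genes (Itgam, Ptprc, Spi1, Lyz2, Tyrobp, Fcer1g) summed to 13000 to 18300 CPM in tumor WT and 19200 to 23400 in tumor KO. Lyz2 was the largest part (mean 11900 in WT, 16700 in KO), whereas Itgam was lower in KO (348 and 262). Over the tumor libraries 10 epithelial markers summed to 16.8 to 58.3 CPM. Among these, Cldn4 was not listed and Epcam, Krt20, Vil1, Cdh17 and Cldn7 stayed under 1 CPM. Cdh1 reached 33.4 CPM in tumor WT and 46.9 in KO, and Krt8, Krt19 and Krt18 reached 5.47, 2.69 and 2.12 in KO against 0.537, 0.336 and 0.224 in WT. The neutrophil marker Ly6g reached at most 0.16 CPM in the tumor libraries, but some other granulocyte markers were higher. The sum of the granulocyte markers was 373 to 400 CPM in tumor WT and 459 to 510 in KO. Of 10 tested, 3 were called. Highest were Csf3r (221 to 252 in WT, 302 to 345 in KO) and Cd177 (82.1 to 89.8 and 101 to 131). Mmp8 had 41.8 to 44.6 and 36.5 to 45.7, S100a8 at most 3.97, and Camp was not listed. Some scarce markers of this list went the other way. Cebpe (3.59 to 3.86 in WT, 1.5 to 2.05 in KO), Lcn2 (3.08 to 3.36 and 1.74 to 2.94) and Retnlg (1.09 to 6.05 and 0.425 to 0.825) were lower in KO. The part of these shifts in the results was not tested, and in bulk RNA fewer cells of a type and less RNA per cell cannot be told apart.

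Upstream sequence is shown for 5 members whose KO changes carry the findings: Slc2a1, Pgam1, Ldha and Gapdh, lower in KO in all 3 experiments, and Eno2, the largest rise in hypoxia and tumor. Each line gives the 250 bases before the RefSeq start (GRCm38.p6), 5′ to 3′ on the gene's strand, with ACGTG or its reverse complement CACGT in capitals. The windows are chr4:119108495-119108744 (plus strand), chr19:41911621-41911870 (plus), chr7:46845554-46845803 (plus, the first of 2 Ldha starts in the table), chr6:125165774-125166023 (minus) and chr6:124769674-124769923 (minus).
Slc2a1: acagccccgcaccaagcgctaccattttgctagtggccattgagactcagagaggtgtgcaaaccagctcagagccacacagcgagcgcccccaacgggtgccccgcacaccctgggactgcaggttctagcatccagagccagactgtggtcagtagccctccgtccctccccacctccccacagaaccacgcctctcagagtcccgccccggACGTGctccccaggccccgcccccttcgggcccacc
Pgam1: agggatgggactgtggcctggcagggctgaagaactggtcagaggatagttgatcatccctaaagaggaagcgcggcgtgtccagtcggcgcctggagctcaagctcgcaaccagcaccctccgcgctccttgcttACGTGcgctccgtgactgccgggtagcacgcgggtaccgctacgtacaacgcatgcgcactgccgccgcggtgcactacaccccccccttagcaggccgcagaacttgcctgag
Ldha: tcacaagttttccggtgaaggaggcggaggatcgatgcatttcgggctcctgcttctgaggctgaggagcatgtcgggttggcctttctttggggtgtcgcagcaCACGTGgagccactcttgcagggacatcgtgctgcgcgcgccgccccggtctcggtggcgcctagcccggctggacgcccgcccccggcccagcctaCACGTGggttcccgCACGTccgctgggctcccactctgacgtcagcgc
Gapdh: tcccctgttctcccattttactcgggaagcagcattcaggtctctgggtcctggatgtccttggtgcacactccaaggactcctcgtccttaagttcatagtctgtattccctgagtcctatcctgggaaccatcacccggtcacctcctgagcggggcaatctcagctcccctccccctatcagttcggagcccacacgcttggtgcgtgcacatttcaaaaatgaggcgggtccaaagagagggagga
Eno2: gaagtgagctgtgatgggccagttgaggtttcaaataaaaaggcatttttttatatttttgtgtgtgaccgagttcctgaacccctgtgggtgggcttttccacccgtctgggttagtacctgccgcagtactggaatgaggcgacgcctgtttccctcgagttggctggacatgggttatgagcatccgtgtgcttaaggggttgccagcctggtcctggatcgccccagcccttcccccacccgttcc
The Ldha window holds 5 matches, counting both strands separately, so that CACGTG counts as 2. Slc2a1 and Pgam1 hold 1 match each, and Gapdh and Eno2 hold none of these letters. At least 1 match stood in an upstream window of 14 of the 40 members with an entry (35%), against 4998 of all 27025 genes in the table (18.5%). Only ACGTG and CACGT were searched for, so a window without them may still hold another form of the core. Matches describe the sequence only. Tpi1, the other member lower in all 3 with an entry, holds none in its window and is not printed, and the second Ldha start also holds none. Of the 5 such members, 3 hold a match. Slc2a3 and Bsg had no entry.

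KO and WT libraries were compared within each experiment. A gene is called where the adjusted p of edgeR's quasi-likelihood test over all genes tested is under 0.05. In normoxia, 3 members were called higher and 8 lower in KO among 40 tested, against 11.3% of all genes called (7.13% higher, 4.17% lower). In hypoxia, 9 were called higher and 12 lower among 42, against 34.9% (17.4% higher, 17.6% lower). In the tumor samples 3 were called higher and 15 lower among 41, against 6.32% (3.28% higher, 3.04% lower). The median log2 fold change of the members was -0.07 for normoxia, 0 for hypoxia and -0.20 for the tumor samples, beside -0.02, -0.01 and 0.01 over all genes tested. WT and KO libraries did not overlap for 16, 20 and 28 members in the 3 experiments in turn, beside 20%, 32.6% and 26.1% of all genes tested. Eno2 and Fbp1 did not pass the filter on low counts in normoxia. KO replicate 4 of normoxia stood apart on the first principal component (-31.3, other KO libraries -14.7 to -3.76) and was the lowest of its group for 20 members and the highest for 12. Without it 3 members were called higher and 6 lower. Members took 2.19% to 2.34% of all counts in normoxia WT and 1.69% to 2.01% in KO. In hypoxia their share was 3.6% to 3.64% in WT and 3.03% to 3.19% in KO, and in the tumor samples 3.24% to 3.55% and 2.48% to 2.61%. Called lower in all 3 comparisons were 6 members: Slc2a1, Tpi1, Gapdh, Pgam1, Ldha and Bsg. Of the 40 members tested in all 3, 16 had fold changes below 0 throughout, 4 above 0 throughout and 20 of mixed sign. These counts across the 3 comparisons were not made over all genes tested. They therefore do not show whether such agreement is particular to the members.

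**Figure D1:**
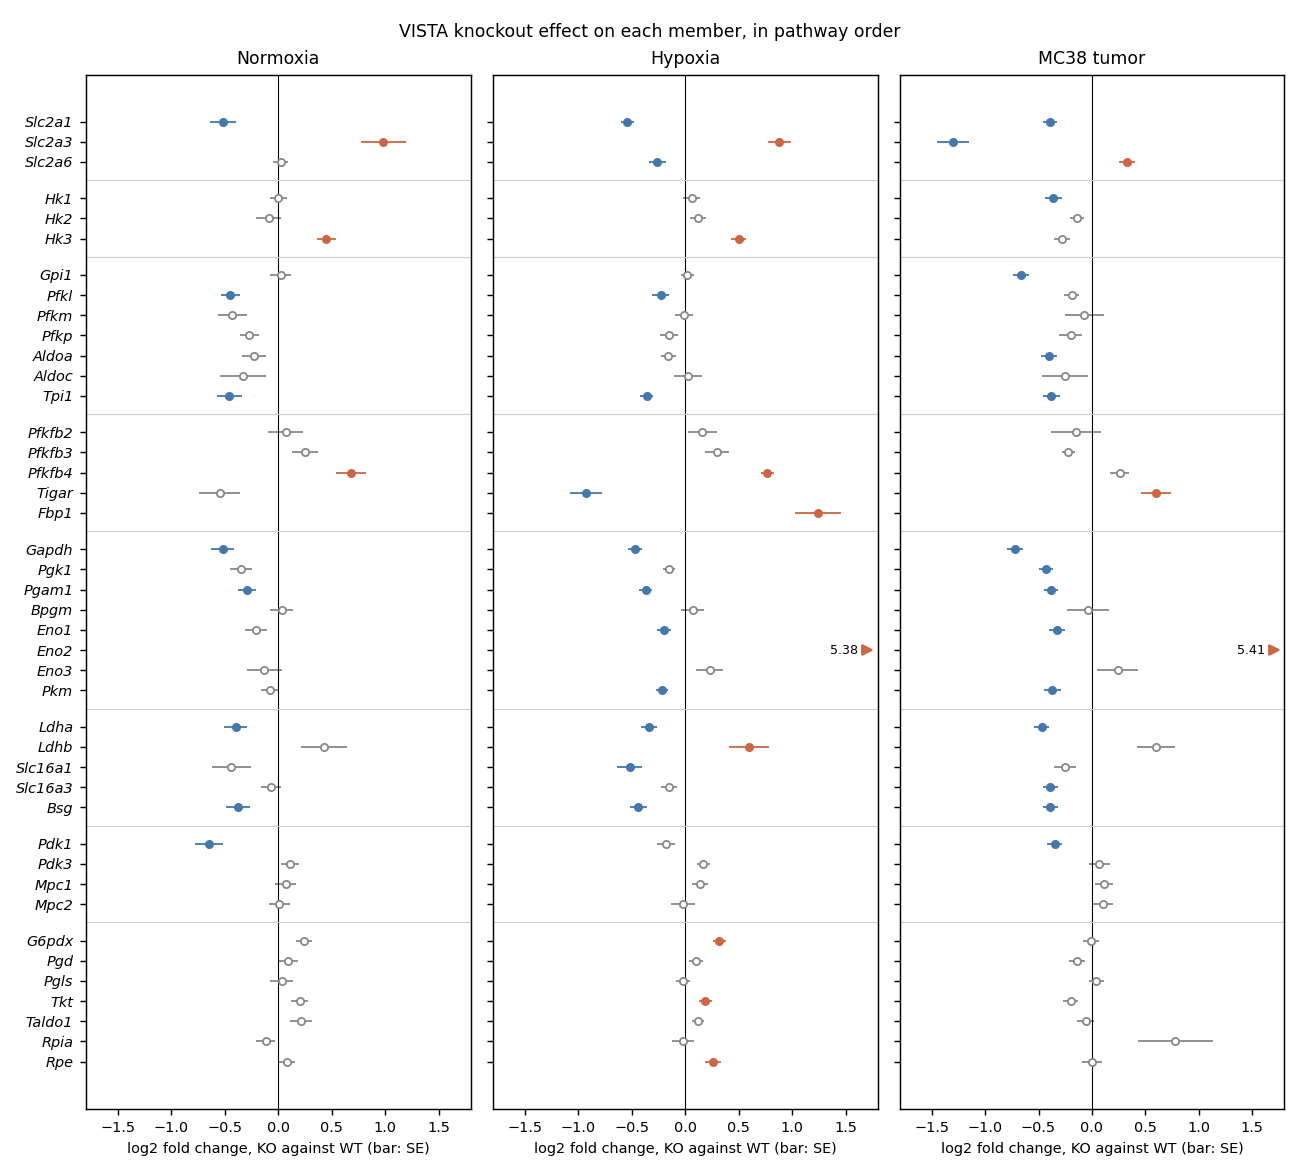
Log2 fold change of KO against WT (horizontal axis, bar: SE) for each member in normoxia, hypoxia and MC38 tumor samples, in pathway order from glucose transporters to pentose phosphate genes. Filled points were called (orange higher, blue lower), open grey points were not, and arrows mark Eno2, beyond the axis at 5.38 and 5.41.

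Glucose transporter genes moved in both directions in KO. Slc2a1 encodes GLUT1, the basal glucose transporter. Its level in normoxia was 172, 174, 141 and 166 CPM in the 4 WT libraries and 134, 116, 115 and 89.5 in the 4 KO libraries. Hypoxia levels were 329, 352, 349 and 334 in WT and 247, 237, 237 and 215 in KO. Tumor libraries had 806, 862 and 791 in WT and 615, 639 and 616 in KO. KO libraries lay below every WT library in each experiment. The log2 fold change was -0.52 ± 0.12 (adjusted p = 0.0211), -0.54 ± 0.06 (adjusted p = 7.59e-05) and -0.39 ± 0.07 (adjusted p = 0.00398) in that order.

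Slc2a3, the high-affinity carrier GLUT3, took opposite directions in culture and tumor. Normoxia levels were 104, 92.3, 138 and 127 CPM in WT and 163, 175, 236 and 335 in KO. In hypoxia WT libraries had 197, 259, 184 and 248 and KO libraries 447, 411, 381 and 392. The tumor samples had far lower levels, 12.7, 12.8 and 11.5 in WT and 5.84, 4.29 and 4.85 in KO. Genotypes did not overlap in any experiment, KO being the higher group in both cultures and the lower one in the tumor samples. The log2 fold change was 0.98 ± 0.21 (adjusted p = 0.0156), 0.88 ± 0.11 (adjusted p = 0.000133) and -1.30 ± 0.15 (adjusted p = 0.000227) in turn. The difference of the tumor effect from the hypoxia effect was -2.22 ± 0.17 (adjusted p = 8.45e-08), and from the normoxia effect -2.33 ± 0.33 (adjusted p = 0.00104). Slc2a6 (GLUT6), a carrier of lysosomal membranes in macrophages, had a log2 fold change of -0.26 ± 0.08 (adjusted p = 0.0223) in hypoxia and 0.33 ± 0.08 (adjusted p = 0.0226) in the tumor samples, and its normoxia groups overlapped (135 to 139 CPM in WT, 133 to 149 in KO). The difference between tumor and hypoxia effects was 0.55 ± 0.12 (adjusted p = 0.00522).

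**Figure D2:**
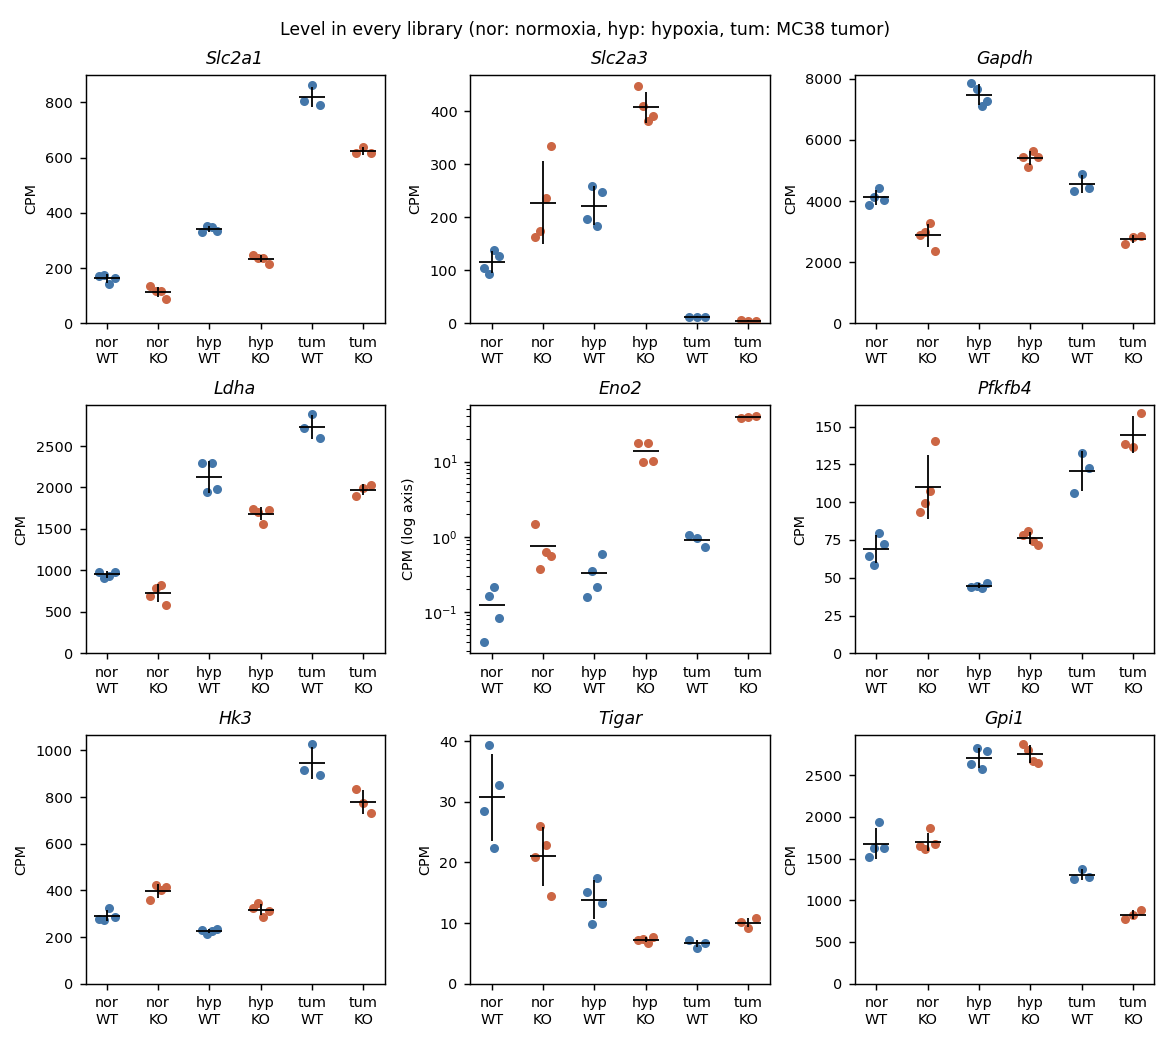
Level in CPM (vertical axis, log scale for Eno2) of 9 members in every library of the 6 groups (nor: normoxia, hyp: hypoxia, tum: MC38 tumor), WT in blue and KO in orange, horizontal bars at the mean and vertical bars for SD except Eno2. Slc2a1, Gapdh and Ldha lie lower in KO in each pair of groups, Slc2a3 turns from higher in cultures to lower in the tumor samples, and the hypoxia and tumor KO libraries of Eno2 stand far above their WT libraries.

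Hexokinases trap glucose in the cell by phosphorylation. Hk3, the isozyme typical of myeloid cells, had 279, 273, 326 and 288 CPM in normoxia WT and 357, 422, 402 and 413 in KO libraries. Hypoxia libraries had 229, 214, 226 and 233 in WT and 326, 346, 288 and 312 in KO. All KO culture libraries exceeded the WT libraries of their experiment, with log2 fold changes of 0.45 ± 0.09 (adjusted p = 0.0109) and 0.50 ± 0.07 (adjusted p = 0.000259). In the tumor samples Hk3 was 897 to 1026 CPM in WT and 731 to 834 in KO, and the change of -0.28 ± 0.08 (adjusted p = 0.0576) was not called by edgeR, but was with the replicate number as a block (adjusted p = 0.000873) or by DESeq2 (adjusted p = 0.0299). The tumor effect minus the hypoxia effect was -0.82 ± 0.12 (adjusted p = 0.000135), and minus the normoxia effect -0.78 ± 0.13 (adjusted p = 0.00223).

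Hk2, the inducible isozyme and a known HIF-1 target, was not called in any genotype comparison. It had 101, 98.7, 73.6 and 101 CPM in normoxia WT and 88.0, 85.0, 76.9 and 101 in KO, with overlapping groups and a change of -0.09 ± 0.12 (adjusted p = 0.621). Hypoxia libraries had 89.1, 109.6, 101 and 112 in WT and 108, 120.4, 108 and 110.1 in KO, again overlapping, with 0.12 ± 0.08 (adjusted p = 0.258). Tumor levels were 189.7, 187 and 184 in WT and 173, 168 and 169 in KO, close but not overlapping, with -0.14 ± 0.06 (adjusted p = 0.244). Hk1, the housekeeping isozyme, fell in the tumor KO samples (WT 265 to 320.0 CPM, KO 216 to 239; log2 fold change -0.36 ± 0.08 SE, adjusted p = 0.0213). Hk1 fold changes were 0 ± 0.08 in normoxia and 0.06 ± 0.08 in hypoxia, neither called, and the tumor effect differed from the hypoxia effect by -0.47 ± 0.13 (adjusted p = 0.0224).

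Among upper glycolysis enzymes, which turn glucose 6-phosphate into triose phosphates, Tpi1 was lower in every KO comparison. Tpi1 interconverts the triose phosphates, and 1.24% of its exon bases overlap Spsb2 on the other strand. Normoxia levels were 559, 564, 608 and 563 CPM in WT and 438, 436, 484 and 314 in KO. In hypoxia they were 1033, 945, 993 and 973 in WT and 795, 783, 719.8 and 776 in KO. Tumor libraries ranged over 2072 to 2421 in WT and 1606 to 1760.1 in KO. WT and KO stood apart in all 3, with log2 fold changes of -0.46 ± 0.12 (adjusted p = 0.0331), -0.36 ± 0.06 (adjusted p = 0.000968) and -0.38 ± 0.08 (adjusted p = 0.0131).

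Pfkl, the liver-type subunit of phosphofructokinase and the most abundant of the 3 per exon length here, was lower in both cultures. It had 249.5, 215, 247 and 233 CPM in normoxia WT and 173, 179.8, 189.6 and 151 in KO, with no overlap (log2 fold change -0.45 ± 0.09 SE, adjusted p = 0.0123). Its hypoxia change was -0.23 ± 0.08 (adjusted p = 0.0499), with WT libraries at 272 to 294 and KO at 206 to 267. In the tumor samples it was -0.19 ± 0.07, called only with the replicate block (adjusted p = 0.0185). Pfkm and Pfkp, the other subunits, were not called by edgeR in the 3 genotype comparisons, except Pfkp in the tumor samples with the block (adjusted p = 0.00998). DESeq2 called both lower in normoxia (adjusted p = 0.0273 and 0.0482). Their log2 fold changes ran from -0.43 (Pfkm, normoxia) to -0.01 (Pfkm, hypoxia).

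Gpi1, which makes fructose 6-phosphate, was called in the tumor samples and in neither culture. Gm26762 shares 11.5% of its exon bases on the other strand. Its tumor levels were 1255, 1381 and 1282 CPM in WT and 777, 825 and 881 in KO. All KO libraries lay below WT, with a log2 fold change -0.66 ± 0.07 (SE), adjusted p = 0.000221. In normoxia the groups overlapped at 1518 to 1945 and 1611 to 1865 CPM, and in hypoxia at 2571 to 2826 and 2649 to 2878. The tumor effect was below the hypoxia effect (-0.73 ± 0.10, adjusted p = 0.000109) and the normoxia effect (-0.72 ± 0.13, adjusted p = 0.00484). Aldoa, the main aldolase of most tissues, had 2463, 2781 and 2639 CPM in tumor WT and 1861, 2014 and 2084 in KO, apart, with a log2 fold change -0.40 ± 0.08 (SE), adjusted p = 0.00725. Aldoa was -0.23 ± 0.11 in normoxia and -0.16 ± 0.07 in hypoxia, neither called, and Aldoc, the brain-type aldolase, was called in none of the 3 without the block and lower in the tumor samples with it (adjusted p = 0.032).

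Fructose 2,6-bisphosphate, the strongest activator of phosphofructokinase, is made and removed by the PFKFB enzymes. Pfkfb4 had 64.7, 58.2, 79.6 and 72.6 CPM in normoxia WT and 93.6, 99.4, 107 and 141 in KO. Hypoxia levels were 44.3, 44.8, 43.3 and 46.8 in WT and 78.1, 81.0, 74.5 and 71.5 in KO. Every KO culture library was above every WT library of its experiment, with log2 fold changes of 0.68 ± 0.14 (adjusted p = 0.0122) and 0.77 ± 0.06 (adjusted p = 7.46e-06). Tumor levels were 106 to 132 in WT and 136 to 159 in KO, apart but called only with the replicate block (0.26 ± 0.09, adjusted p with the block = 0.00851), and the tumor effect was below the hypoxia effect (-0.55 ± 0.11, adjusted p = 0.00398).

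Pfkfb3, the isozyme with the highest kinase activity, was not called for genotype by edgeR without a replicate block. It had 59.9, 52.2, 61.5 and 58.5 CPM in normoxia WT and 65.4, 58.4, 65.0 and 87.3 in KO, with overlap (0.25 ± 0.12, adjusted p = 0.169). Hypoxia libraries had 79.5, 119, 85.0 and 99.2 in WT and 119, 122, 122 and 107 in KO, also overlapping (0.30 ± 0.11, adjusted p = 0.0556). Tumor libraries had 375, 377 and 391 in WT and 334, 323 and 324 in KO. These groups did not overlap, and the change was -0.22 ± 0.06 (adjusted p = 0.0634), called with the replicate number as a block (adjusted p = 0.00479). DESeq2 called Pfkfb3 higher in hypoxia (adjusted p = 0.0391) and lower in the tumor samples (adjusted p = 0.0461). Tumor and hypoxia effects differed by -0.56 ± 0.14 (adjusted p = 0.012). Pfkfb2 stayed below 5 CPM everywhere and was not called for genotype.

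Tigar, a phosphatase that lowers fructose 2,6-bisphosphate and favours the pentose phosphate pathway, changed in opposite directions. In hypoxia it had 15.1, 9.77, 17.4 and 13.2 CPM in WT and 7.27, 7.29, 6.77 and 7.71 in KO. All KO libraries lay below WT, with a log2 fold change -0.93 ± 0.15 (SE), adjusted p = 0.000801. In the tumor samples KO was above WT (10.1, 9.25 and 10.9 against 7.18, 5.93 and 6.77 CPM), without overlap, with a log2 fold change 0.60 ± 0.14 (SE), adjusted p = 0.0225. The normoxia change was -0.55 ± 0.19 (adjusted p = 0.0821), which DESeq2 called (adjusted p = 0.0466). The tumor effect exceeded the hypoxia effect by 1.5 ± 0.22 (adjusted p = 0.000257) and the normoxia effect by 1.11 ± 0.27 (adjusted p = 0.028). Fbp1, which reverses the phosphofructokinase step in gluconeogenesis, was scarce. Its hypoxia levels were 1.09, 1.09, 0.997 and 1.16 CPM in WT and 1.7, 2.21, 3.07 and 3.28 in KO, with every KO library higher (log2 fold change 1.24 ± 0.22 SE, adjusted p = 0.0013). In normoxia it had 40 counts in all over the 4 WT libraries and 48 over the 4 KO libraries (p = 0.686, exact permutation test, two-sided).

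Lower glycolysis runs from glyceraldehyde 3-phosphate to pyruvate. Gapdh, its first enzyme and a common reference gene, had 3866, 4119.7, 4439.9 and 4050.3 CPM in normoxia WT and 2894, 2976, 3268 and 2357 in KO. In hypoxia it had 7866, 7663, 7114 and 7291 in WT and 5442, 5104, 5652 and 5455 in KO. Tumor libraries had 4332, 4892 and 4441 in WT and 2593, 2832 and 2844 in KO. No KO library reached the WT range of its experiment. Log2 fold changes were -0.52 ± 0.11 (adjusted p = 0.0139), -0.47 ± 0.07 (adjusted p = 0.000325) and -0.72 ± 0.08 (adjusted p = 0.000123). The annotation holds 2 pseudogenes each named for Gapdh, Aldoa, Pgk1, Pgam1 and Ldha, and reads of these genes could be split with them.

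Pgam1, phosphoglycerate mutase, had 895, 908, 925 and 922 CPM in normoxia WT and 748, 783, 809 and 653 in KO. In hypoxia the levels were 1319, 1279, 1403 and 1268 in WT and 1078, 1016, 973 and 1005 in KO, and in the tumor samples 974, 987 and 963 in WT and 737, 769 and 741 in KO. KO lay below WT with no overlap in each, at -0.29 ± 0.08 (adjusted p = 0.0496), -0.37 ± 0.06 (adjusted p = 0.000964) and -0.38 ± 0.06 (adjusted p = 0.00384). Pgk1, the first ATP-yielding enzyme, had 862, 872 and 864 CPM in tumor WT and 627, 659.5 and 647 in KO, a narrow spread within each genotype and no overlap (log2 fold change -0.43 ± 0.06 SE, adjusted p = 0.00175). In culture it was -0.35 ± 0.11 (adjusted p = 0.0558) in normoxia and -0.15 ± 0.06 (adjusted p = 0.071) in hypoxia, called lower by DESeq2 but not by edgeR (adjusted p = 0.0255 and 0.0304), and the tumor effect minus the hypoxia effect was -0.32 ± 0.09 (adjusted p = 0.0306).

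Pkm encodes pyruvate kinase, which forms pyruvate, and Gm49759 shares 15.3% of its exon bases on the same strand. Normoxia libraries had 2000.2, 2069, 2259 and 2091 CPM in WT and 1917, 1928, 2163 and 1946 in KO. In hypoxia they had 5115, 4944, 5080.1 and 4995 in WT and 4396, 4287, 4266 and 4286 in KO. Tumor libraries had 5217, 6271 and 5267 in WT and 4191, 4448 and 4330.4 in KO. Genotypes overlapped in normoxia (-0.08 ± 0.08, adjusted p = 0.515), while KO was the lower group throughout in hypoxia (-0.22 ± 0.06, adjusted p = 0.0106) and tumor (-0.37 ± 0.08, adjusted p = 0.0197). Eno1, the main enolase, was likewise called lower in hypoxia (-0.20 ± 0.07, adjusted p = 0.0354) and tumor (-0.33 ± 0.07, adjusted p = 0.0195) and not in normoxia (-0.21 ± 0.10, adjusted p = 0.178). Bpgm, which makes 2,3-bisphosphoglycerate, and Eno3, the muscle enolase, were below 10 CPM and not called for genotype in any experiment.

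Eno2, the enolase best known from neurons, stood out in size. Raw counts in normoxia were 1, 4, 5 and 2 in WT and 35, 9, 14 and 12 in KO libraries. In hypoxia they were 5, 11, 7 and 19 in WT and 535, 297, 547 and 315 in KO. Tumor libraries held 32, 30 and 20 counts in WT and 880, 846 and 785 in KO. WT and KO were far apart in hypoxia and tumor, and apart by a small number of counts in normoxia. The log2 fold change was 5.38 ± 0.34 (adjusted p = 3.01e-06) in hypoxia and 5.41 ± 0.14 (adjusted p = 1.82e-10) in the tumor samples. In normoxia, where the gene did not enter the fit, the mean was 0.125 ± 0.0777 CPM in WT and 0.76 ± 0.495 in KO (SD, n = 4 each), with an exact two-sided permutation p of 0.0286 (adjusted over 2 tests, 0.0571), the smallest 4 against 4 can give. In CPM the KO level was 17.8, 9.79, 17.9 and 10.2 in hypoxia and 38.3, 39.9 and 40.5 in the tumor samples. Eno2 lies on chromosome 6, 124760053 to 124769673 (GRCm38, minus strand), with no exon shared with another gene. Of 12 tested genes within 100 kb, a window chosen after the values were seen, 0 were called higher in each experiment. Those called lower numbered 3 in normoxia, 6 under hypoxia and 2 among the tumor samples, beside 4.17%, 17.6% and 3.04% of all genes. Tpi1, itself a member, was among them in each experiment, and Cd4, one of the T and NK cell markers, in the tumor samples. Defining neuronal markers were near 0 in the tumor libraries (Snap25 and Syt1 not listed, with a summed level of 6 neuron and neuroendocrine markers of 1.3 to 2.48 CPM in WT and 2.26 to 2.48 in KO), and in hypoxia that sum was 0.735 to 1.31 in WT and 1.17 to 1.85 in KO.

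Ldha, the lactate dehydrogenase subunit that favours lactate, had 983, 905, 936 and 985 CPM in normoxia WT and 698, 794, 821 and 583 in KO. Its hypoxia levels were 2301, 1940.3, 2293 and 1979.5 in WT and 1738, 1708, 1566 and 1731 in KO. In tumor libraries they were 2718, 2882 and 2594 in WT and 1897, 1996 and 2034 in KO. The KO group was lower without overlap in all 3 experiments, with -0.40 ± 0.11 (adjusted p = 0.0387), -0.34 ± 0.08 (adjusted p = 0.00578) and -0.47 ± 0.07 (adjusted p = 0.00184). Ldhb, the subunit that favours pyruvate, went the other way where called: hypoxia levels were 3.13, 2.24, 2.84 and 3.6 CPM in WT and 3.3, 4.22, 5.82 and 4.52 in KO, overlapping, with a log2 fold change 0.60 ± 0.19 (SE), adjusted p = 0.0288. Ldhb was 0.43 ± 0.21 (adjusted p = 0.191) in normoxia and 0.60 ± 0.17 (adjusted p = 0.0746) in the tumor samples, where it was called with the block (adjusted p = 2e-04) and by DESeq2 (adjusted p = 0.0114).

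Lactate leaves through Slc16a1 (MCT1) and Slc16a3 (MCT4), for which basigin, encoded by Bsg, is the chaperone at the membrane. Bsg had 184, 192, 229.8 and 194 CPM in normoxia WT and 145, 166, 175 and 127 in KO. Its hypoxia levels were 351, 360.4, 331 and 332 in WT and 287, 264, 226 and 232 in KO, and in the tumor samples 452, 459 and 441 in WT and 317, 348 and 366 in KO. KO libraries were lower without overlap throughout, with -0.38 ± 0.11 (adjusted p = 0.0475), -0.44 ± 0.08 (adjusted p = 0.00157) and -0.39 ± 0.07 (adjusted p = 0.0064). Slc16a3, the lactate exporter raised by HIF-1, had 244, 234, 282 and 242 CPM in normoxia WT and 226, 242, 269 and 219 in KO. Hypoxia levels were 649.8, 671, 639 and 661 in WT and 658, 616, 550.3 and 533 in KO, and tumor levels 735, 774 and 697 in WT and 569, 579.8 and 532 in KO. Culture groups overlapped (-0.07 ± 0.09, adjusted p = 0.634 and -0.15 ± 0.07, adjusted p = 0.123), and tumor KO libraries lay below WT (-0.39 ± 0.07, adjusted p = 0.00586). Slc16a1 fell in hypoxia, where its groups overlapped (37.8 to 54.7 CPM in WT, 27.6 to 38.1 in KO; log2 fold change -0.52 ± 0.12 SE, adjusted p = 0.00615), and was not called elsewhere.

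Pyruvate enters mitochondria through the carrier Mpc1 and Mpc2, and Pdk1 phosphorylates and so inhibits pyruvate dehydrogenase. Pdk1 had 81.9, 57.9, 90.9 and 72.5 CPM in normoxia WT and 51.5, 45.5, 52.9 and 42.7 in KO. In hypoxia it had 148, 184, 146 and 154 in WT and 154, 129, 144 and 131 in KO. Tumor libraries had 125, 132 and 132 in WT and 104, 96.7 and 104 in KO. KO was lower without overlap in normoxia and tumor (-0.65 ± 0.13, adjusted p = 0.0122 and -0.35 ± 0.07, adjusted p = 0.00841), and overlapped WT in hypoxia (-0.18 ± 0.09, adjusted p = 0.122). Pdk3, Mpc1 and Mpc2 were not called for genotype by edgeR (DESeq2 called Pdk3 higher in hypoxia, adjusted p = 0.0484), with log2 fold changes from -0.02 (Mpc2, hypoxia) to 0.17 (Pdk3, hypoxia).

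Among the 7 pentose phosphate genes, 3 were called higher in hypoxia and none lower, beside 17.4% and 17.6% of all genes. In normoxia and the tumor samples 0 were called by edgeR, 2 in each passing an unadjusted p under 0.05. DESeq2 called 2 higher in normoxia, G6pdx (0.25, adjusted p = 0.00745) and Tkt (0.21, adjusted p = 0.0469), and 0 in the tumor samples. G6pdx, which commits glucose 6-phosphate to the pathway, had 536, 598, 584 and 563 CPM in normoxia WT and 653, 654, 711 and 675 in KO. In hypoxia it had 591, 539, 586 and 587 in WT and 673, 746, 725 and 736 in KO. Tumor levels were 196, 202 and 176 in WT and 200.2, 184 and 187 in KO. KO exceeded WT in every culture library, with 0.24 ± 0.07 (adjusted p = 0.0598) in normoxia and 0.32 ± 0.06 (adjusted p = 0.00206) in hypoxia, and overlapped it in the tumor samples (-0.01 ± 0.07, adjusted p = 0.973). The tumor effect minus the hypoxia effect was -0.38 ± 0.11 (adjusted p = 0.0295). Ikbkg shares 13.6% of the exon bases of G6pdx on the opposite strand. Tkt, a transketolase of the non-oxidative branch, was 0.19 ± 0.06 (adjusted p = 0.0347) in hypoxia and -0.20 ± 0.07 (adjusted p = 0.151) in the tumor samples, where the block gave an adjusted p of 0.0144, and those effects differed by -0.43 ± 0.11 (adjusted p = 0.013). Rpe, ribulose-phosphate epimerase, was 0.26 ± 0.08 (adjusted p = 0.0209) in hypoxia, with 17.9% of its exon bases shared with Kansl1l on the other strand. Pgd, Pgls, Taldo1 and Rpia were not called for genotype in any experiment.

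Hypoxia and normoxia cultures were set against each other within each genotype. Oxygen cannot be told apart here from culture length, from the deposited table or from purification, which is stated for normoxia only. Cell type markers moved too. In WT the eosinophil sum was 67.1 to 83 CPM in normoxia and 1070 to 1720 in hypoxia, the mast cell and basophil sum 44.5 to 64.2 and 476 to 737, and the dendritic cell sum 43.5 to 95.1 and 394 to 599. In KO these sums were 88.6 to 143 and 2110 to 3770, 93.4 to 128 and 739 to 1070, and 125 to 286 and 197 to 456. The largest parts of the hypoxia dendritic cell sums were H2-Aa and H2-Ab1 (means of 142 and 145 CPM in WT, 122 and 111 in KO). All 8 tested markers of cycling cells were called lower in hypoxia in WT, and 6 of 8 in KO. The part of these shifts in the members' changes was not tested. In WT, 24 members were called higher and 8 lower in hypoxia among 41 tested, against 53.3% of all genes called (26% higher, 27.3% lower). In KO, 29 were higher and 6 lower among 42, against 47.9% (24.9% higher, 23.1% lower). Libraries of the 2 conditions did not overlap for 31 members in WT and 33 in KO, beside 47.6% and 43.7% of all genes. The median log2 fold change of the members was 0.50 in WT and 0.64 in KO, beside -0.03 and -0.01 over all genes. The smallest p in WT belonged to Slc16a3 (1.49 ± 0.07, adjusted p = 1.39e-08), the lactate exporter. Pkm (1.36 ± 0.07, adjusted p = 2.25e-08), Ldha (1.26 ± 0.08, adjusted p = 1.49e-07) and Pgk1 (1.26 ± 0.09, adjusted p = 2.16e-07) followed. Slc2a1 (1.16 ± 0.08, adjusted p = 2.81e-07), Tpi1 (0.88 ± 0.07, adjusted p = 3.93e-07), Eno1 (0.90 ± 0.07, adjusted p = 4.28e-07) and Gapdh (0.96 ± 0.07, adjusted p = 6.26e-07) came next. In KO the order began with Pdk1 (1.66 ± 0.09, adjusted p = 2.18e-07), the brake on pyruvate dehydrogenase. Pgk1 (1.48 ± 0.09, adjusted p = 3.37e-07), Pkm (1.24 ± 0.08, adjusted p = 4.7e-07), Slc16a3 (1.43 ± 0.10, adjusted p = 6.7e-07) and Ldha (1.34 ± 0.11, adjusted p = 2.55e-06) came after it. Eno2 (4.31 ± 0.36, adjusted p = 4.45e-06), Aldoc (1.65 ± 0.15, adjusted p = 4.97e-06) and Slc2a6 (-0.90 ± 0.08, adjusted p = 6.77e-06), the last one lower, completed the first 8. Of the 7 pentose phosphate genes, Pgls was called higher in WT, Pgls and G6pdx in KO, and Rpia and Rpe were called lower in both.

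**Figure D3:**
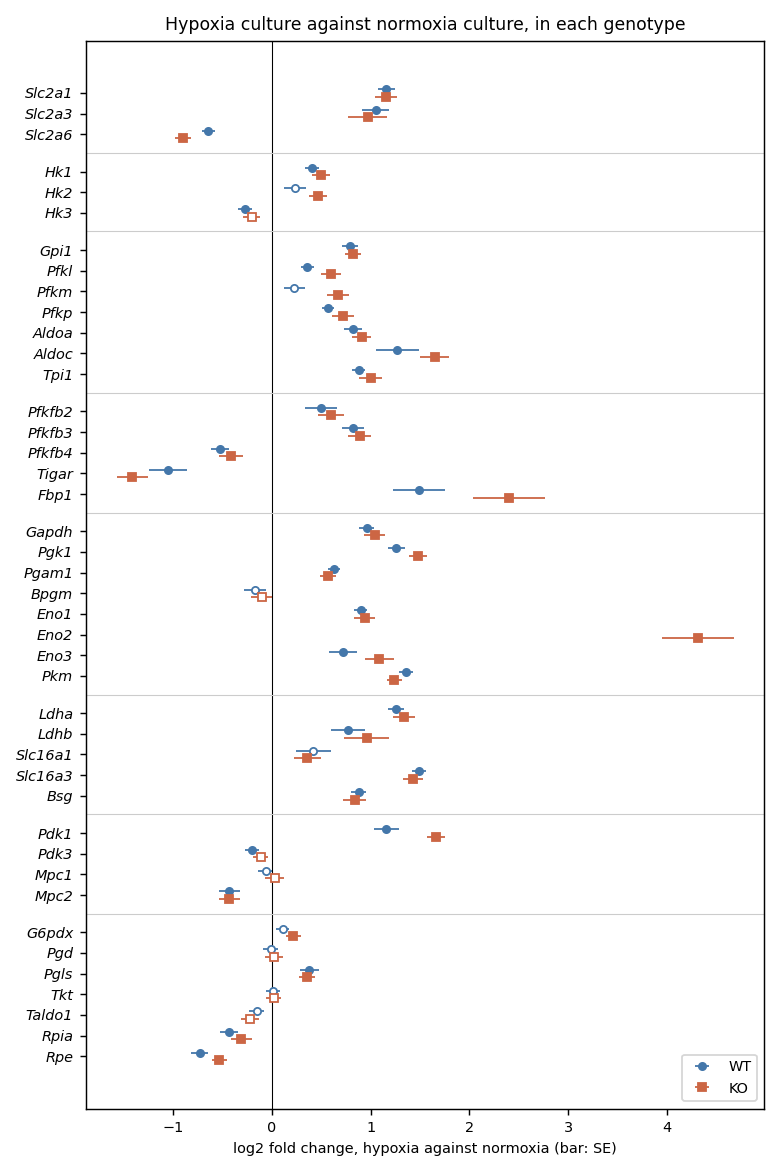
Log2 fold change of hypoxia against normoxia cultures (horizontal axis, bar: SE) for each member, WT as blue circles and KO as orange squares, filled where called. From Slc2a1 to Pdk1 most points lie right of 0, pentose phosphate genes lie on both sides of it, and Eno2 stands at 4.31 in KO, with no WT point because it did not pass the count filter there.

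A difference between the genotype effects in hypoxia and in normoxia was called for 0 of 42 members by edgeR, against 0.477% of all genes; 4 members had an unadjusted p under 0.05. DESeq2 called 1, Eno2, at a log2 difference of 2.78 (adjusted p = 0.04). In edgeR that difference was 2.80 ± 0.97 (adjusted p = 0.351), from the counts near 0 given above. Slc2a1 gave -0.02 ± 0.14 (adjusted p = 0.994) and Pdk1 0.48 ± 0.16 (adjusted p = 0.317). These p-values do not show that the effects are alike. Between tumor and hypoxia, 2 members differed upwards (Tigar, Slc2a6) and 9 downwards, against 10.2% of all genes called (3.82% up, 6.42% down). Between tumor and normoxia, 2 differed upwards (Tigar and Eno2, the latter at 2.79 ± 0.74, adjusted p = 0.04) and 4 downwards, against 4.22% (1.42% up, 2.8% down); the fourth of the downward differences was Tkt (-0.44 ± 0.12, adjusted p = 0.044).

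Isozyme levels were compared per kilobase of merged exons, with each experiment scaled separately, so that values are set side by side across experiments without a test. Merged exons join all annotated exons of a gene, so the order of genes within a family depends on this length. Genes of the mitochondrial genome took 3.72% to 5.72% of counts in the cultures and 0.112% to 0.259% in the tumor libraries. For ribosomal protein genes these shares were 2.45% to 3.69% and 0.701% to 0.894%. The part of these differences in the levels was not tested. In WT, Slc2a1 had 46.5 CPM per kb in normoxia, 97.2 under hypoxia and 234 among tumor samples. Slc2a3 had 15.9, 30.7 and 1.7. In KO cultures the 2 carriers were closer, at 32.5 and 31.4 in normoxia and 66.7 and 56.3 in hypoxia, their library ranges overlapping in both. Tumor KO samples had 178 and 0.689. Without division by length, Slc2a3 was above Slc2a1 in every KO culture library. Its levels were 163 to 335 CPM against 89.5 to 134 in normoxia and 381 to 447 against 215 to 247 in hypoxia.

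Per kb, Hk3 was the highest hexokinase in every group, from 61.2 CPM per kb in hypoxia WT to 257 in tumor WT. Without division by length, Hk1 was above Hk3 in every hypoxia WT library (319 to 350 against 214 to 233 CPM). In that measure the 2 overlapped in hypoxia KO (304 to 381 and 288 to 346) and in normoxia WT (249 to 295 and 273 to 326). Among phosphofructokinase subunits the order Pfkl, Pfkp, Pfkm held per kb in all 6 groups. Without division by length, Pfkp and Pfkl overlapped in tumor WT (593 to 755 and 593 to 666 CPM) and tumor KO (524 to 669 and 537 to 549). They also overlapped in both KO culture groups. Pfkfb4 stood above Pfkfb3 in normoxia (14.1 and 7.67 in WT) and below it in the tumor samples (24.7 and 50.4). In hypoxia KO the pair did not differ beyond the spread (15.6 and 15.5). Eno1 had 827 CPM per kb in tumor KO samples against 8.41 for Eno2, so the raised Eno2 remained a minor enolase transcript. Eno2 was above Eno3 there (4.04), overlapped it in hypoxia KO (2.96 and 2.47) and was below it in tumor WT (0.196 and 3.43). Rpia, the ribose 5-phosphate isomerase, had 14.7 CPM per kb in normoxia WT and 0.173 in tumor WT. G6pdx, Pgd and Tkt were also lower in tumor WT (62.1, 46.8 and 34.2) than in normoxia WT (185, 169 and 182), whereas Taldo1 was higher (247 and 183).

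**Figure D4:**
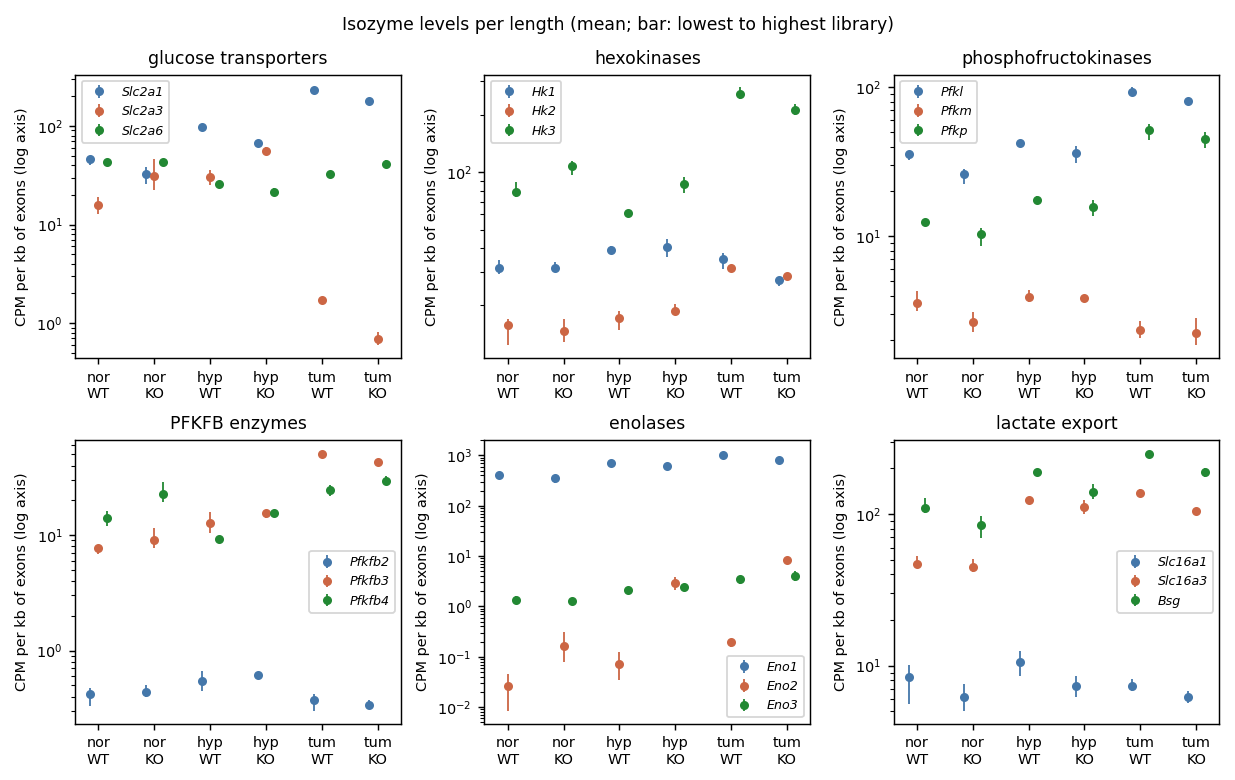
Mean level in CPM per kilobase of merged exons (vertical log axis) of members of 6 families in the 6 groups (nor: normoxia, hyp: hypoxia, tum: MC38 tumor), with bars from the lowest to the highest library. Per kb, Slc2a3 falls from a level near Slc2a1 in KO cultures to under 1 in tumor KO samples, Hk3 and Eno1 lead their families in every group, and Eno2 lies above Eno3 in tumor KO and overlaps it in hypoxia KO.

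Further genes of these pathways were taken from lists outside the members. In each list the shares called stand beside 11.3% of all genes called in normoxia, 34.9% in hypoxia and 6.32% for tumor samples, so hypoxia shares of 33.3% to 44.4% in the first 5 lists below are near that background. Adpgk, an ADP-dependent glucokinase, rose in KO in both cultures (0.97 ± 0.11, adjusted p = 0.000835 in normoxia; 1.28 ± 0.09, adjusted p = 3.24e-06 in hypoxia). Of 11 tested isozymes outside the members, 1 was higher and 1 lower in normoxia (Pck2, -0.64 ± 0.15, adjusted p = 0.0243), 3 higher and 1 lower in hypoxia, and 0 of 10 called in the tumor samples. In hypoxia Pgam2, the muscle phosphoglycerate mutase, was 0.86 ± 0.10 (adjusted p = 7.57e-05), Minpp1 -0.50 ± 0.09 (adjusted p = 0.00205) and Gapdhs 0.91 ± 0.29 (adjusted p = 0.0313). Among 9 tested pyruvate dehydrogenase genes, 0 were called in normoxia and the tumor samples and 4 were lower in hypoxia, led by the E2 subunit Dlat (-0.38 ± 0.07, adjusted p = 0.0023), Pdhx (-0.36 ± 0.11, adjusted p = 0.0265), Pdp1 (-0.28 ± 0.10, adjusted p = 0.0383) and Pdhb (-0.21 ± 0.075, adjusted p = 0.0455). Of 9 tested sugar-handling genes, 0 were called in normoxia, 1 was higher and 3 lower in hypoxia (among them Galk1 -0.68, Akr1b3 -0.45 and Sord 0.20), and 2 were lower in the tumor samples (among them Galk1 -0.34). Prps2, which makes PRPP from ribose 5-phosphate, was lower in normoxia (-0.42 ± 0.10, adjusted p = 0.0253) and hypoxia (-0.37 ± 0.08, adjusted p = 0.00447), the latter with Prps1 (-0.57 ± 0.15, adjusted p = 0.0121). In normoxia and hypoxia 1 and 2 of the 6 tested genes of that list were called. Ldhc was the 1 of 3 further lactate genes called in hypoxia (1.30 ± 0.29, adjusted p = 0.00567), and 0 were called in normoxia or tumor. Where edgeR called 0 of these lists, an unadjusted p under 0.05 was reached in normoxia by 5 pyruvate dehydrogenase, 2 sugar-handling and 1 lactate genes. For tumor samples it was reached by 1 isozyme, 1 lactate, 1 pyruvate dehydrogenase and 2 pentose phosphate genes outside the members.

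Among other genes of glycogen handling, calls came in both directions. Of 15 tested, 1 was higher in normoxia (Phkg2, 0.33 ± 0.09, adjusted p = 0.0319), and 5 were higher and 1 lower in hypoxia (40% of the list, near the 34.9% of all genes called), with the phosphorylase Pygl (0.45 ± 0.07, adjusted p = 0.000512) first. Of 16 tested in the tumor samples 4 were lower (25%, beside 6.32% of all genes called), namely the synthase Gys1 (-0.56 ± 0.07, adjusted p = 0.00055), Pgm1 (-0.54 ± 0.09, adjusted p = 0.00299), Gbe1 (-0.45 ± 0.09, adjusted p = 0.0119) and Ugp2 (-0.29 ± 0.07, adjusted p = 0.0245).

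HIF targets outside glycolysis were called lower or not at all in the tumor samples. Of 17 tested there, 0 were higher and 9 lower in KO, led by Selenbp1 (-1.04 ± 0.09, adjusted p = 2.69e-05), Mxi1 (-0.57 ± 0.07, adjusted p = 0.000672), Ndrg1 (-0.76 ± 0.11, adjusted p = 0.00159) and Bnip3 (-0.43 ± 0.08, adjusted p = 0.00538), and the list median was -0.38. That is 52.9% of the list, beside 6.32% of all genes called. In normoxia 0 were higher and 4 lower of 16: Hilpda (-1.04 ± 0.16, adjusted p = 0.00367), P4ha1 (-0.57), Vegfa (-0.54) and Fam162a (-0.69), with a list median of -0.43 (25% of the list, beside 11.3% of all genes called). In hypoxia 4 were higher and 2 lower of 16 (37.5%, near the 34.9% of all genes called), with Higd1a (-0.50 ± 0.08, adjusted p = 0.000865) and Fam162a (-0.53 ± 0.11, adjusted p = 0.00301) lower and Mxi1 (0.29 ± 0.07, adjusted p = 0.00636) and Narf (0.31 ± 0.08, adjusted p = 0.0115) first among those higher. Hif1a itself was lower in KO in normoxia (-0.43 ± 0.08, adjusted p = 0.00932) and hypoxia (-0.31 ± 0.09, adjusted p = 0.0212). Egln3, a HIF prolyl hydroxylase that HIF itself raises, was lower in normoxia (-0.70 ± 0.14, adjusted p = 0.0123), hypoxia (-0.45 ± 0.10, adjusted p = 0.00672) and tumor (-0.48 ± 0.08, adjusted p = 0.00287). Of the 16 tested regulators, 0 were higher and 2 lower in normoxia, and 1 was higher (Epas1, 0.52 ± 0.12, adjusted p = 0.00691) and 3 lower in hypoxia, including Trp53 (-0.31 ± 0.10, adjusted p = 0.0394). Tumor samples had 1 higher (Nfe2l2, 0.29 ± 0.07, adjusted p = 0.0321) and 2 lower, with Myc at -0.63 ± 0.13 (adjusted p = 0.0138).

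Part of the calls in edgeR were lost when 1 library was left out, which also makes the groups smaller. In normoxia, 4 of the 11 called members (Gapdh, Hk3, Pdk1 and Pfkl) kept their call when any 1 library was left out. Without WT replicate 1 the count was 1 higher and 3 lower, without WT replicate 2 it was 3 and 4, without WT replicate 4 it was 3 and 3, and without KO replicate 1 it was 3 and 4. Bsg and Pgam1 lost their calls in 7 of 8 such fits (adjusted p of 0.0535 to 0.0992 and 0.0573 to 0.113), all but the one without KO replicate 2. Over the 8 fits their log2 fold changes ran from -0.45 to -0.30 and from -0.33 to -0.23. Tpi1 lost its call without KO replicate 1 or any WT library (0.0505 to 0.0743). Ldha lost it without KO replicate 1 or WT replicate 1, 2 or 4 (0.0643 to 0.0971), and Slc2a1 without KO replicate 3 or WT replicate 1, 2 or 4 (0.0573 to 0.0706). Slc2a3 lost it without WT replicate 1 or 2 (0.0527 to 0.0695) and Pfkfb4 without WT replicate 1 (0.0571).

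In hypoxia 15 of the 21 called members kept their calls throughout. Eno1 lost it in 7 of 8 fits (0.0507 to 0.119), all but that without WT replicate 2, while its log2 fold change ran from -0.22 to -0.16. Tkt lost it in 6 (0.0615 to 0.0982), all but those without KO replicate 3 or WT replicate 1. Pfkl lost it without KO replicate 3 or 4 or WT replicate 1, 3 or 4 (0.078 to 0.129), and Ldhb without KO replicate 2 or 3 or WT replicate 1, 2 or 3 (0.0516 to 0.0881). Slc2a6 lost it without KO replicate 2 or 4 or WT replicate 3 or 4 (0.0515 to 0.0709), and Rpe without KO replicate 2 or 4 or WT replicate 4 (0.0526 to 0.0675).

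In the tumor samples the same-numbered WT and KO libraries deviated together, and a pairing was read from this alone. With the replicate number as a block, edgeR called 5 members higher and 21 lower, against 3 and 15, and 2266 genes against 908. The members called under the block in addition were Hk3 (-0.28, adjusted p = 0.000873), Pfkl (-0.19, adjusted p = 0.0185), Pfkp (-0.20, adjusted p = 0.00998), Aldoc (-0.26, adjusted p = 0.032), Pfkfb3 (-0.22, adjusted p = 0.00479), Tkt (-0.20, adjusted p = 0.0144), Pfkfb4 (0.27, adjusted p = 0.00851) and Ldhb (0.60, adjusted p = 2e-04). Without the block, 9 of the 18 called members kept their call when any 1 library was left out, and the count was 1 higher and 9 lower without KO replicate 1, 2 and 9 without KO replicate 2, and 1 and 14 without KO replicate 3. Hk1 lost its call in all such fits but that without WT replicate 3 (0.0524 to 0.086), and Eno1 and Pkm without KO replicate 1 or 2 or WT replicate 2 (0.0627 to 0.129 and 0.0594 to 0.127). Aldoa and Tpi1 lost theirs without KO replicate 1 or 2 (0.0576 to 0.0679 and 0.0654 to 0.0986), Bsg without KO replicate 1 (0.0547) and Pdk1 without KO replicate 2 (0.0751). Slc2a6 lost it without KO replicate 1 or 3 or WT replicate 1 or 3 (0.053 to 0.109), and Tigar without any 1 KO library or WT replicate 2 (0.0545 to 0.0925).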

How the data were processed

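From 22 samples, libraries were made with a SMART-Seq kit of Takara, per the labels. The authors deposited raw counts per Ensembl gene and a normalized signal, made with Subread, featureCounts and DESeq2 on GRCm38.p6 per the submitters' processing notes. The signal equals the counts times 1 factor per library and was used for 1 alternative. Strand setting and versions are not given in the sources used here. Culture columns not named WT carry a code and were read as KO by elimination.

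Genes were tested in R 4.3.3 with edgeR 4.0.16 on each whole table (filterByExpr, TMM, robust quasi-likelihood test, Benjamini-Hochberg, 0.05), tested on simulated data, with DESeq2 1.42.0 and limma 3.58.1 as alternatives. CPM use TMM-scaled library sizes within a table. SE is the fold change divided by the root of F. Lengths and positions came from GENCODE M21 (GRCm38), promoters from RefSeq. Replicates of a group differed by more than counting noise (the lowest chi-square over its degrees of freedom was 4.57). Same-numbered tumor libraries correlated at 0.26 to 0.61 in their deviations from group means, and all 3 were closest to their own number. A pairing was read from these same data alone, and results with the block depend on it.

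All members were described by role. Library values were given for the 12 called members of smallest p per genotype comparison and, whatever their p, Slc2a1, Hk2, Pfkfb3, Gapdh, Pkm, Ldha, Slc16a3, Pdk1 and G6pdx, with up to 8 members for other comparisons and up to 4 genes per pathway list. Some genes of these lists are not reported here. Members and lists were chosen with earlier results of these data known.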

Additional observations from a re-analysis of the deposited data

Results flagged for a closer look

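In 6 of 82 groups of 4 libraries, 1 library lay apart from the others by Dixon's test, where chance flags about 1 in 20. The lowest Hk2 level in normoxia WT was 73.6 CPM in replicate 3, the other libraries having 98.7 to 101. Hk2 in hypoxia KO was highest in replicate 2 (120 CPM, others 108 to 110). Tpi1 in normoxia WT was highest in replicate 3 (608 CPM, others 559 to 564). Pkm was highest in normoxia KO replicate 3 (2160 CPM, others 1920 to 1950) and in hypoxia KO replicate 1 (4400 CPM, others 4270 to 4290). G6pdx in hypoxia WT was lowest in replicate 2 (539 CPM, others 586 to 591).

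Genotype effects differed between experiments in edgeR's test of the difference (adjusted p under 0.05). The tumor effect minus the hypoxia effect, on the log2 scale, was -2.22 for Slc2a3, 0.55 for Slc2a6, -0.47 for Hk1, -0.82 for Hk3, -0.73 for Gpi1, -0.56 for Pfkfb3, -0.55 for Pfkfb4, 1.5 for Tigar, -0.32 for Pgk1, -0.38 for G6pdx and -0.43 for Tkt. The tumor effect minus the normoxia effect was -2.33 for Slc2a3, -0.78 for Hk3, -0.72 for Gpi1, 1.11 for Tigar, 2.79 for Eno2 and -0.44 for Tkt. Of these, Eno2 and Tkt each lost the call in 11 of the 14 fits that left out 1 library (adjusted p of 0.0501 to 0.147 and 0.0508 to 0.119) and Tigar in 6 (0.0517 to 0.0867). Sample source, culture, cell type content and table differ between the experiments and cannot be told apart. Granulocyte marker sums were 27600 to 73400 CPM over the culture libraries and 373 to 510 over the tumor libraries. Monocyte and macrophage marker sums were 2980 to 3840 and 16300 to 20900. The part of cell type content in these differences was not tested.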

How the results depend on the processing

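Of 1394 single-gene values under the alternatives, 1209 kept direction and side of the threshold, 166 lost a call, 15 gained one and 4 changed sign: Slc16a3 in normoxia (0.03 without KO replicate 4 and WT replicate 3 together, chosen after seeing the data) and G6pdx in tumor (0.01 without KO replicate 2, 0 without WT replicate 1, 0.03 without WT replicate 2, the 6 such fits spanning -0.07 to 0.03), none of them called.

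DESeq2 called 5 members higher and 2395 genes in normoxia, 1 member higher and 200 genes for hypoxia minus normoxia, and 987 genes for tumor minus normoxia. Requiring a fold above 1.2 left 1 member higher, 0 lower and 416 genes in normoxia, 5, 4 and 1959 in hypoxia, and 1, 3 and 333 in tumor. In normoxia 0 members were lower there although 8 were called without that demand. Without any count filter the tumor comparison called 1363 genes. Leaving out both libraries named above gave 2881 genes in normoxia.

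Leaving out 1 library gave 1 to 4 members higher, 3 to 10 lower and 469 to 2233 genes in normoxia, and 1 to 3, 9 to 15 and 444 to 1072 in tumor. It gave 40 to 100 genes for hypoxia minus normoxia, and 0 to 3 members higher and 334 to 815 genes for tumor minus normoxia. The cause was not tested.

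With the replicate number as a block, tumor counts became 5 members higher and 2266 genes, tumor minus normoxia 7 members lower and 1084 genes, and hypoxia minus normoxia 40 genes. In the cultures the numbers were not shown to pair libraries (correlations of 0.02 to 0.64 in normoxia and -0.44 to 0.06 in hypoxia, with 1 and 0 of the 4 pairs best with their own number). The block gave 4 members higher and 10 lower in normoxia and 6 and 9 in hypoxia.

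Library size alone turned the split of all genes called from 995 higher and 582 lower to 726 and 951 in normoxia, from 3781 and 3973 to 2951 and 5535 for hypoxia against normoxia in WT, and from 3640 and 3375 to 2983 and 4483 in KO. For tumor minus hypoxia it turned 634 and 1064 into 1099 and 754 (upper quartile 834 and 881), and for tumor minus normoxia 220 and 432 into 320 and 218 (261 and 256). For hypoxia minus normoxia 29 and 44 became 42 and 42. The median over all genes moved from -0.03 to -0.15 (WT), -0.01 to -0.12 (KO) and -0.01 to 0.12 (tumor minus normoxia), and that of the members from 0.50 to 0.37, 0.64 to 0.54 and -0.11 to 0.03.

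Low counts limit Eno2 in normoxia and in the WT libraries of hypoxia and tumor, Fbp1 in both cultures, and Rpia, Pfkfb2 and Bpgm in tumor.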
